A study of Mus musculus with 4 samples.

Results

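Proliferating Tregs were examined among hepatic CD4+ T cells of mice with diet-induced MASH, a steatotic liver disease with inflammation and cell death. They were chosen by their own transcripts, counted as unique molecular identifiers (UMIs, 1 per captured RNA molecule). A cell was a member when it held at least 1 UMI of *Mki67*, of *Top2a* and of *Foxp3* or *Ikzf2*, and at least 1 UMI of *Cd3e*, *Cd3d* or *Cd3g*. It had to hold 0 UMIs of *Siglech* and *Lyz2*, more than 200 genes and under 5% mitochondrial UMIs. In all, 350 of 28018 filtered cells were members, 102 of 10556 in the WT library and 248 of 17462 in the dKO library. They were set beside 1122 and 6028 non-proliferating Tregs, which passed the same gate with 0 UMIs of both *Mki67* and *Top2a*, and beside 271 and 103 proliferating conventional T cells, which held *Mki67*, *Top2a* and CD3 but neither *Foxp3* nor *Ikzf2*.

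Tregs restrain other T cells and depend on the transcription factor Foxp3, and many of thymic origin also carry Helios, the product of *Ikzf2*. Tissue Tregs divide locally in response to antigen and IL-2, and produce proteins such as IL-10, CTLA-4 and the repair factor amphiregulin. In dividing cells, Ki-67 coats mitotic chromosomes, topoisomerase IIα untangles replicated DNA, and genes of DNA replication are switched on before genes of mitosis.

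Each genotype had 1 library, made from sorted hepatic CD4+ T cells pooled from 2 male mice and captured with a 5′ droplet kit that also gave T cell receptor sequences. The WT mice and the dKO mice all received CD, a choline-deficient diet with 60 kcal% fat and 0.1% methionine. The dKO mice carried loxP-flanked Nr4a1 (fl/fl) and Nr4a2 (fl/fl) with Cd4Cre. Cre from the *Cd4* promoter deletes both of these nuclear receptors in all cells that pass through CD4 expression, so the loss is not limited to Tregs. The cells of the pooled mice cannot be told apart, and with 1 library per genotype no test between genotypes was possible. Intervals in parentheses are exact 95% intervals for counting error only, and do not cover differences between mice or preparations.

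The libraries held 23437516 (WT) and 37794986 (dKO) UMIs after filtering, with medians of 1679 and 1685 UMIs per cell. The targeted transcripts went against the labels: *Nr4a1* had 725 CPM (UMIs of the gene per 1000000 UMIs summed over a group of cells) in the library labelled WT and 1659 CPM in the library labelled dKO, and *Nr4a2* had 183 and 306 CPM. The tables do not say which exon a UMI came from, so transcripts of a deleted allele were not separable from intact ones, and WT and dKO below mean the libraries so labelled. The libraries shared 242 cell barcodes, of which 25 had a TRB contig in both and 0 had the same one. Of the members, 3 WT and 4 dKO cells carried a shared barcode, and 0 barcodes marked a member in both libraries.

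The choosing transcripts differed in depth of detection. *Mki67* (ENSMUSG00000031004, chromosome 7 of GRCm38 from 135689784 to 135716361) had a median of 5.5 UMIs per member in WT and 4 in dKO, and *Top2a* (ENSMUSG00000020914, chromosome 11 from 98992943 to 99024189) had medians of 5 and 4. Just inside the threshold, 11 WT and 25 dKO members held exactly 1 UMI of each. Just outside it, 187 WT and 525 dKO gated cells held only one of the pair and were set aside. *Foxp3* (ENSMUSG00000039521, chromosome X from 7573644 to 7595245) was held by 44 WT members (43.1%, 33.4 to 53.3) and by 151 dKO members (60.9%, 54.5 to 67.0). The other 58 WT and 97 dKO members entered through *Ikzf2* (ENSMUSG00000025997, chromosome 1 from 69531214 to 69687245) alone. A cell class that should lack *Foxp3*, with *Siglech* or *Lyz2* and without CD3, held it in 0.303% of WT and 1.08% of dKO cells. Its median depth was 1530 UMIs in WT and 2903.5 in dKO, and that of members 6034 and 5386. This background covers *Foxp3* and not *Ikzf2*, of which 27 WT and 51 dKO members held exactly 1 UMI.

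The label was checked against marker lists in the members. The 6 Treg markers, of which 2 were used by the rule, summed to 2045 CPM in WT and 3334 CPM in dKO, and none was at 0. The 4 not used by the rule summed to 1180 and 2363 CPM, against 543 and 972 CPM in proliferating conventional T cells. These sums pool members with *Foxp3* and members with *Ikzf2* alone. Of the 4, *Ctla4* and *Il2ra* were higher in those with *Foxp3* (log2 1.39 and 2.66 in WT, 0.50 and 1.16 in dKO). The sums therefore do not describe the members with *Ikzf2* alone. In WT 56.9% of the members had no *Foxp3* UMI, so there the name proliferating Tregs stands for the gate rather than for *Foxp3* expression, and dKO over WT values are given below also for members with *Foxp3*. Of the 2 CD8 markers, *Cd8a* was at 0 UMIs in both libraries, and *Cd8b1* had 2 UMIs in WT and 21 UMIs in 19 dKO members. All 4 erythroid and all 3 platelet markers were at 0. The 4 plasma cell markers gave 108 UMIs in WT (1 of 4 at 0) and 338 in dKO, most of them *Xbp1*, which other activated lymphocytes also express, and *Jchain*. Myeloid markers gave 4 UMIs in WT (6 of 9 at 0) and 34 in dKO (3 of 9 at 0), and B cell markers gave 4 (4 of 6 at 0) and 68 UMIs (1 of 6 at 0). NK markers gave 18 and 57 UMIs (2 of 5 at 0 in each library), and NKT markers gave 27 and 11 UMIs, of which *Zbtb16* held 19 and 9. Markers of innate lymphoid cells gave 134 UMIs in 60 WT members and 215 in 110 dKO members, of which *Gata3* held 67 and 107. Endothelial markers gave 98 and 97 UMIs, of which *Pecam1* held 95 and 97. The invariant NKT receptor TRAV11-TRAJ18 was found in 0 of 59 WT and 1 of 141 dKO members with a TRA contig. Cells with 2 TRB contigs, a sign of doublets, made up 13.1% of WT and 5.29% of dKO members with a TRB contig (8 of 61 and 9 of 170), against 6.04% and 1.94% of non-proliferating Tregs. Without them every count of genes past 2-fold stayed within 1.5 times, and the part of the markers above was not tested.

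Genes of mitosis and of replication, which the members share beyond the choosing pair, carry different short motifs at their promoters, so the promoters of 3 genes are shown. RefSeq promoters on GRCm38.p6, from 250 bases before to 50 after the start, were matched for 63 of 77 genes of the S phase and G2/M lists. They are written 5′ to 3′ on the minus strand, which is the coding strand of all 3 genes. Capitals mark matches on either strand of CCAAT, the letters read by the factor NF-Y, of TTTGAA or TTCGAA, the core of the cell cycle homology region bound with the MuvB complex, and of TTTNNCGC, an E2F-type word. TTCGAA is its own reverse complement, and matches of different motifs overlapped in 2 of the 63 promoters. *Hmmr*, at chr11:40733388-40733687, had the largest ratio in the members and holds 5 CCAAT matches and TTTGAA. *Cenpf*, at chr1:189688037-189688336, encodes a centromere protein and holds 2 CCAAT matches and TTTGAA. *Mcm6*, at chr1:128359656-128359955, encodes a subunit of the replicative helicase and holds 3 matches of TTTNNCGC and 2 of CCAAT.
Hmmr: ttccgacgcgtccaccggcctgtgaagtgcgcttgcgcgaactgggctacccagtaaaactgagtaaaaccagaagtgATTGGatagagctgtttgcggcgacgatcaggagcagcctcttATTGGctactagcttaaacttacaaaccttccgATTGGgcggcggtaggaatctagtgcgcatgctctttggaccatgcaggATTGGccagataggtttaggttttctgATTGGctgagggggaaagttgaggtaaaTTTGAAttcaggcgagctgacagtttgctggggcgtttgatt
Cenpf: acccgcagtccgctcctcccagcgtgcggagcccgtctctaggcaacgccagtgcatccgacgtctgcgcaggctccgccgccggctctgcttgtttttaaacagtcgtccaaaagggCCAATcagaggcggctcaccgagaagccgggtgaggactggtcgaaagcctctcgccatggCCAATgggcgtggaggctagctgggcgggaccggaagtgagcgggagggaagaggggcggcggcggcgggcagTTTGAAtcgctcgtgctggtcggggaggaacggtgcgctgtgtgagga
Mcm6: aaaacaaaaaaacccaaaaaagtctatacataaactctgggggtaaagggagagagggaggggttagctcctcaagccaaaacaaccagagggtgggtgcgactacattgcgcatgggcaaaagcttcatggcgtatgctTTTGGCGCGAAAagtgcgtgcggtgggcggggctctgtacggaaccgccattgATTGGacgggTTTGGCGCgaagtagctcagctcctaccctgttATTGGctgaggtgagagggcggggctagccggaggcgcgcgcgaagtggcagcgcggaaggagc

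TTTGAA or TTCGAA was found in 75% of the G2/M promoters (27 of 36), 14.8% of the S phase promoters (4 of 27) and 19.4% of all 27025 promoters of this length. TTTNNCGC was found in 8.33%, 40.7% and 5.27% of them, and CCAAT in 72.2%, 55.6% and 37.9%. CCAAT together with TTTGAA or TTCGAA was found in 61.1%, 11.1% and 7.70%. A match describes the letters in this window and is not a measured site.

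The members' share of the gated Tregs was read as a description, since the rule defines it. It was 7.23% in WT (5.93 to 8.71, 102 of 1411) and 3.65% in dKO (3.21 to 4.12, 248 of 6801). Depth moved with this result: non-proliferating Tregs had a median of 1940 UMIs in WT and 1374 in dKO. Among gated cells of at least 2000 UMIs, the shares were 12.1% and 11.5%. When every cell was thinned to 2000 UMIs before the gate, they were 6.03% (4.28 to 8.21, 37 of 614) in WT and 6.97% (5.89 to 8.18, 139 of 1994) in dKO, and the order turned. At 1000 UMIs they were 2.17% and 0.938%, so no order of the libraries was read from these shares. Gated conventional T cells gave 4.49% in WT and 2.22% in dKO by the same rule, and 7.01% and 9.51% after thinning to 2000 UMIs. Fewer dividing cells and less RNA of the choosing genes per cell cannot be told apart here.

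**Figure D1:**
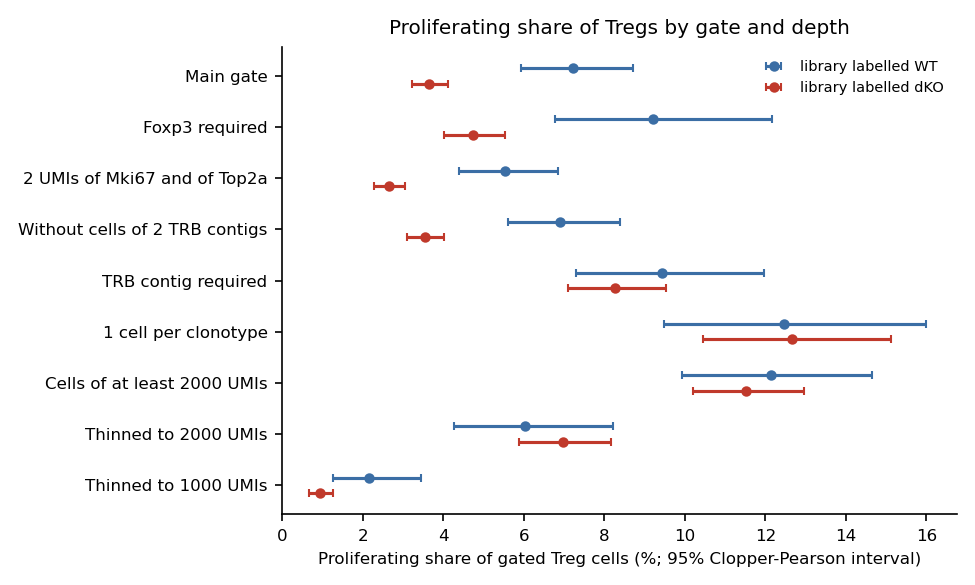
Proliferating share of gated Treg cells in percent (x axis) under each gate or depth setting (y axis), with points for the share and bars for 95% Clopper-Pearson intervals, WT in blue and dKO in red. WT lies above dKO under the main gate (7.23% and 3.65%), while the intervals overlap in cells of at least 2000 UMIs, with 1 cell per clonotype, with a TRB contig required and after thinning to 2000 UMIs.

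Against non-proliferating Tregs, proliferating Tregs had higher levels of the replication and mitosis lists in both libraries. Because the rule required *Mki67* and *Top2a* in one group and their absence in the other, these values describe the members and support nothing further. Genes with at least 50 CPM in either group were compared, the 9 rule genes left out. Of these, 7.78% (309 of 3974) were at least 2-fold higher in members and 1.69% (67) at least 2-fold lower in WT, against 8.80% (341 of 3875) and 6.71% (260) in dKO. In both libraries at once, 244 of 3538 genes (6.90%) were higher and 30 (0.848%) lower. The log2 ratios correlated across these genes with a Pearson r of 0.92 between libraries, where genes are not independent replicates.

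The mitotic genes differed most. The 42 genes of a G2/M list that leaves out *Mki67* and *Top2a* summed to 8019 CPM in WT members against 694 CPM in non-proliferating Tregs, and to 7432 against 679 CPM in dKO. *Hmmr*, which helps to build the spindle, had 156 CPM against 0.375 in WT and 104 against 0.198 in dKO, on 1 and 2 UMIs in the non-proliferating cells. It had the largest ratio when genes are ranked by the smaller of the library ratios (log2 8.70, 6.19 to 14.02, and 9.03, 7.16 to 12.09). *Ccna2*, the cyclin of S phase and mitotic entry, had 319 against 2.62 CPM in WT and 299 against 0.791 in dKO. *Aurkb*, the kinase that corrects chromosome attachment, had 122 against 1.12 and 161 against 0.989 CPM, and *Birc5*, its partner survivin, had 458 against 5.99 and 578 against 3.46. *Shcbp1*, *Esco2*, *Nuf2*, *Cenpf*, *Neil3*, *Ska1* and *Kif4* completed the 10 genes with the largest ratios. Of the 36 list genes compared in WT and the 34 in dKO, 35 and 33 were at least 2-fold higher, but 31 and 29 of them reached 50 CPM only through the members, so these counts follow from the filter. *Pttg1*, securin, was the exception, at 86.4 against 99.3 CPM in WT and 95.6 against 139 in dKO.

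Replication genes followed at smaller ratios. The 35 S phase genes summed to 4035 against 843 CPM in WT and to 5574 against 864 in dKO, and 22 of 23 compared in WT and all 26 in dKO were at least 2-fold higher (18 and 19 compared only through the members). *Pclaf*, a PCNA clamp factor, had 566 against 9.74 CPM in WT and 754 against 3.76 in dKO (log2 5.86, 5.29 to 6.49, and 7.65, 7.18 to 8.16). *Rrm2*, the inducible subunit of ribonucleotide reductase, had 234 against 7.12 and 342 against 5.73 CPM, and *Tyms*, thymidylate synthase, had 199 against 19.1 and 269 against 16.4. The clamp *Pcna* itself had 177 against 68.9 and 263 against 62.4 CPM. The 24 replication-dependent histone genes summed to 3252 against 542 CPM in WT and to 3661 against 383 in dKO. Chromatin proteins of dividing cells were abundant: *Hmgb2* had 2960 against 514 CPM in WT and 3200 against 395 in dKO, and *Stmn1*, the microtubule regulator stathmin, had 907 against 28.5 and 1011 against 21.4. All 13 genes of that list were at least 2-fold higher in both libraries, 3 in WT and 5 in dKO compared only through the members.

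Not all regulators of the cycle were higher. Of 14 G1 cyclin, kinase and E2F genes, 5 were compared and only *Cdk4*, the G1 kinase, was at least 2-fold higher in both libraries, beside 6.90% of all genes, at 126 against 58.4 CPM in WT and 145 against 60.9 in dKO. *Ccnd2*, a D-type cyclin induced by IL-2, was lower at 142 against 254 and 115 against 225 CPM, and *Ccnd3*, its relative, was within its interval at 265 against 294 and 114 against 118. Of 13 inhibitors, 10 were compared, and *Cdkn2c*, *Cdkn2d* and *Rbl1* were at least 2-fold higher in both libraries, but these 3 reached 50 CPM only through the members and had to be higher. In dKO *Btg1* and *Cdkn1b* were at least 2-fold lower, beside 6.71% of all genes, and in WT 0 of the 10 were, beside 1.69%. *Cdkn1b* (p27), the inhibitor tied to the resting state, was at 167 against 236 CPM in WT (log2 -0.50, -0.81 to -0.21) and 123 against 258 in dKO (-1.08, -1.30 to -0.86). *Btg1*, an antiproliferative factor of resting lymphocytes, was at 634 against 1201 and 427 against 1323 CPM. *Cdkn1a* (p21) was higher in WT members, at 137 against 73.0 CPM, and was not separated in dKO, at 122 against 134. Energy genes were moderately higher, with sums of the 18 respiratory chain genes at 5605 against 4345 CPM in WT and 7420 against 5067 in dKO, and sums of the 16 glycolysis genes at 4012 against 3142 and 4963 against 3495.

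**Figure D2:**
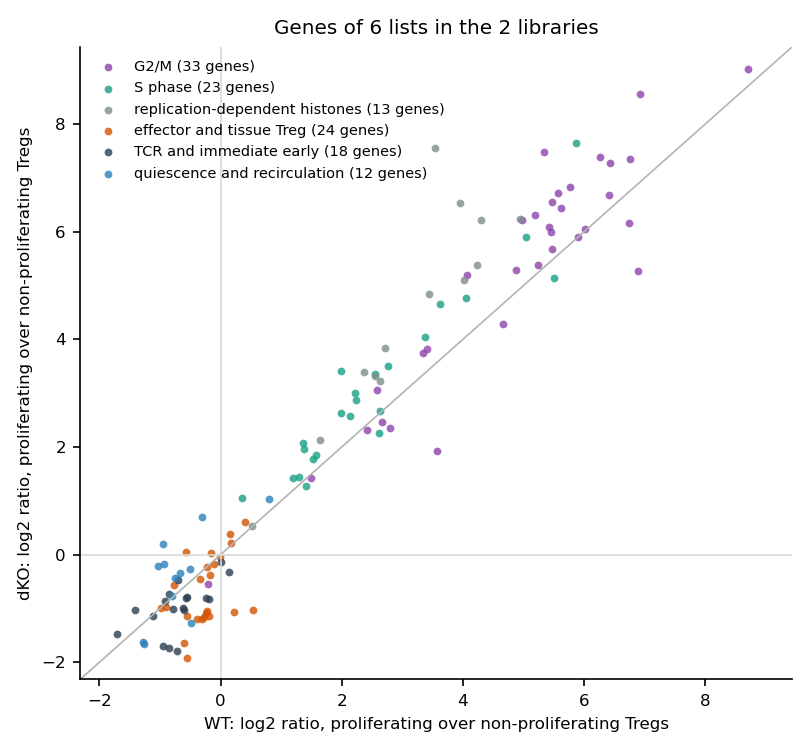
Log2 ratio of proliferating over non-proliferating Tregs in WT (x axis) and in dKO (y axis) for genes of 6 lists with at least 50 CPM in either group of each library, 1 point per gene, with the grey diagonal marking equal ratios. The 33 G2/M, 23 S phase and 13 histone genes drawn lie mostly above 1 on both axes, and 19 of the 24 effector Treg and all 18 immediate early genes lie below 0 on the dKO axis.

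Lists of activation and of the resting state summed to lower levels in members. RNA measures moved with this comparison: median *Malat1* was 3820 CPM in members against 6932 in non-proliferating Tregs in WT, and 2467 against 6469 in dKO. The median ribosomal share was 13.9% against 18.6% in WT and 18.6% against 17.0% in dKO. The part of these measures in the sums was not tested. The 20 genes of a T cell receptor and immediate early list summed to 9187 against 14888 CPM in WT (log2 -0.70, -0.74 to -0.66) and to 8327 against 15261 in dKO (-0.87, -0.90 to -0.85). *Junb*, an AP-1 subunit, had 2184 against 4129 CPM in WT and 1649 against 2989 in dKO. *Fosl2*, another AP-1 subunit, had 66.3 against 217 and 86.8 against 242 CPM. *Nr4a3*, the receptor that the dKO design leaves intact, had 219 against 361 CPM in WT (log2 -0.72, -0.98 to -0.46) and 98.9 against 343 in dKO (-1.79, -2.04 to -1.55). *Nr4a1* had 537 against 876 CPM in WT and 1571 against 2164 in dKO, so its level in members was also higher in the library labelled dKO. At least 2-fold lower were 3 of 18 genes compared in WT, beside 1.69% of all genes, and 8 of 18 in dKO, beside 6.71%. Of these 18, 1 in WT and 2 in dKO reached 50 CPM only through non-proliferating cells and had to be lower. When cells were thinned to 2000 UMIs, 3 of 18 and 3 of 17 were, beside 4.01% and 4.70%.

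Of 13 genes of quiescence and recirculation, 12 were compared in both libraries, of which *Il7r*, the receptor that keeps resting T cells alive, and *Txnip*, a brake on glucose uptake, were at least 2-fold lower in each, beside 0.848% of all genes. Of the 13 genes, 1 in WT and 3 in dKO were higher in members at any size. At least 2-fold higher were 0 in WT and 1 of 12 compared in dKO, beside 7.78% and 8.80% of all genes. In dKO 1 of the 12 reached 50 CPM only through members and had to be higher. *Il7r* had 211 against 514 CPM in WT and 96.9 against 299 in dKO. The 10 genes with the lowest ratios were *Kdm5b*, *Tcp11l2*, *Fosl2*, *Jmy*, *Zhx2*, *H2-Aa*, *Il7r*, *Gm45716*, *Kctd12* and *Txnip*. *Kdm5b*, a histone demethylase, had 12.3 against 66.3 CPM in WT and 10.1 against 84.6 in dKO.

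Genes of Treg function summed to lower levels in proliferating than in non-proliferating Tregs of both libraries. Median *Malat1* was also lower in members (3820 against 6932 CPM in WT and 2467 against 6469 in dKO), and the ribosomal shares given above differed too. The part of these RNA measures in the sums was not tested. The Treg core list without the rule genes summed to 3509 against 4131 CPM in WT (log2 -0.24, -0.30 to -0.17) and to 4941 against 7648 in dKO (-0.63, -0.67 to -0.60), with 2 of 12 and 6 of 15 genes at least 2-fold lower, 5 of the 15 compared only through the non-proliferating cells, beside 1.69% and 6.71% of all genes. The 35 effector and tissue Treg genes summed to 7569 against 8028 CPM in WT (log2 -0.08, -0.13 to -0.04) and to 10518 against 14214 in dKO (-0.43, -0.46 to -0.41). In WT 0 of 25 compared were at least 2-fold lower, beside 1.69% of all genes, and in dKO 14 of 29 were, beside 6.71%, with medians of -0.22 and -0.999 beside 0.06 and -0.09 over all genes. In dKO 2 of the 29 reached 50 CPM only through non-proliferating cells and had to be lower. After thinning to 2000 UMIs, which leaves out 4443 of 6028 non-proliferating dKO Tregs, 4 of 30 were at least 2-fold lower in dKO and 2 of 23 in WT, beside 4.70% and 4.01% of all genes, with medians of -0.62 and -0.16. The difference between the libraries was not tested.

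*Ctla4*, the inhibitory receptor that strips ligands from antigen-presenting cells, had 808 CPM in WT members (740.5 to 881) against 858 in non-proliferating Tregs, and 1709 CPM in dKO members (1643 to 1777) against 2147. *Tigit*, another inhibitory receptor, had 160 against 210 CPM in WT (log2 -0.39, -0.71 to -0.09) and 429 against 953 in dKO (-1.15, -1.27 to -1.04). The costimulatory receptors of the TNF family showed the same order. *Tnfrsf4* (OX40) had 461 against 607 CPM in WT and 882 against 2031 in dKO, *Tnfrsf9* (4-1BB) had 213 against 324 and 347 against 1082, and *Tnfrsf18* (GITR) had 227 against 400 and 510 against 1121. *Ccr8*, a chemokine receptor of tissue Tregs, had 134 against 198 CPM in WT and 155 against 585 in dKO (log2 -1.91, -2.11 to -1.72). *Icos*, which sustains effector Tregs, was near equal at 713 against 667 and 622 against 723 CPM.

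*Klrg1*, an inhibitory receptor of terminally differentiated Tregs, went in opposite directions in the libraries. It had 191 CPM in WT members (159 to 228) against 132 in non-proliferating Tregs, and 226 CPM in dKO members (203 to 252) against 460. The cytokine *Il10* had 21.6 against 22.5 CPM in WT and 84.8 against 168 in dKO. In WT members, 64.3% of the *Il10* UMIs came from 1 of 5 positive cells, against 11.1% from 1 of 52 in dKO. *Areg*, amphiregulin, had 205 against 348 CPM in WT and 492 against 723 in dKO. *Il2ra*, the high-affinity IL-2 receptor chain that defines Tregs, had 133 against 174 CPM in WT and 118 against 163 in dKO, and *Batf*, an AP-1 partner of effector Tregs, had 119 against 132 and 224 against 219.

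Shares of positive cells gave a similar picture once depth was equal. After thinning to 2000 UMIs, *Tnfrsf9* was found in 26.6% of WT members and 30.7% of non-proliferating Tregs, and in 41.4% (35.1 to 47.9) against 64.5% (62.1 to 66.8) in dKO. The unthinned shares were 39.2% against 33.1% and 62.5% against 62.4%, at median depths of 6034 against 1940 and 5386 against 1374 UMIs. Thinned *Tigit* was found in 23.4% against 27.7% of WT cells and in 57.4% (50.9 to 63.7) against 69.1% (66.8 to 71.4) of dKO cells. Cells with *Siglech* or *Lyz2* and without CD3 showed *Tnfrsf9* in 0.763% and 1.09% and *Tigit* in 2.29% and 6.46% after the same thinning. Thinning kept 94 of 102 and 244 of 248 members, and 548 of 1122 and 1585 of 6028 non-proliferating Tregs.

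**Figure D3:**
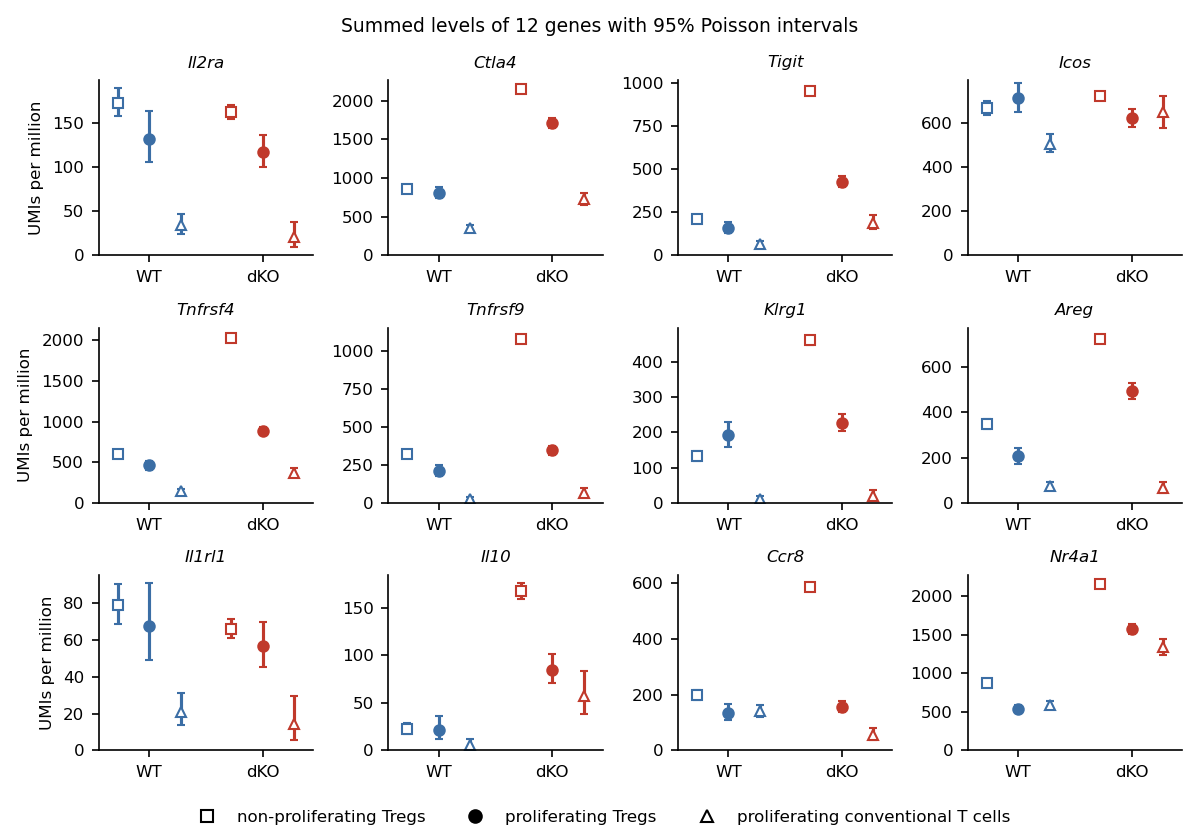
Summed level in CPM (y axis of each panel, from 0) of 12 genes in non-proliferating Tregs (open squares), proliferating Tregs (filled circles) and proliferating conventional T cells (open triangles) of WT (blue) and dKO (red), with 95% Poisson intervals. In dKO, *Tigit*, *Tnfrsf4*, *Tnfrsf9*, *Ccr8* and *Klrg1* are lower in proliferating than in non-proliferating Tregs, and *Klrg1* in WT is the reverse (191 against 132 CPM).

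Members differed in their shares of S phase and G2/M list UMIs. The S phase list took a median of 0.328% of a member's UMIs in WT (quartiles 0.132 to 0.628) and 0.507% in dKO (0.263 to 0.812), while the G2/M list took 0.777% (0.391 to 1.18) and 0.686% (0.337 to 1.06). Members with more UMIs of the S phase list than of the G2/M list made up 28.4% in WT (19.9 to 38.2, 29 of 102) and 43.1% in dKO (36.9 to 49.6, 107 of 248). Thinned to 2000 UMIs the shares were 27.7% and 44.7%, and with *Foxp3* required they were 27.3% (12 of 44) and 41.1% (62 of 151). In 19 WT and 51 dKO members the lists lay within 1.5-fold of each other. Some members counted on the S side held few UMIs of either list. Examples are a WT cell with 0.060% S and 0.015% G2/M and a dKO cell with 0.042% and 0%. Medians in non-proliferating Tregs were 0.067% and 0.057% in WT and 0.071% and 0.057% in dKO. The side thus says which list had more UMIs, and not that a cell was in S phase. Whether the members form a range or separate states was not tested. Proliferating conventional T cells gave 37.3% in WT and 43.7% in dKO. Summed over the list genes, the S phase level was higher in dKO than in WT members (log2 0.47, 0.40 to 0.53) and the G2/M level was slightly lower (-0.11, -0.16 to -0.06).

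Within the members, some effector transcripts differed with the list that held more UMIs. *Birc5* was lower in S-leaning than in G2/M-leaning members (log2 -1.46, -1.98 to -0.97, in WT and -1.17, -1.40 to -0.95, in dKO), which follows from its place in the G2/M list. Among named genes outside the S and G2/M lists, *Icos* was lower in S-leaning members (-0.88, -1.24 to -0.54, and -0.68, -0.88 to -0.48), and so were *Tigit* (-1.19, -2.06 to -0.41, and -0.64, -0.88 to -0.40) and *Il2ra* (-1.83, -3.01 to -0.83, and -0.58, -1.06 to -0.12). The chemokine *Ccl4* was higher in S-leaning members (1.76, 1.01 to 2.53, and 2.40, 2.17 to 2.64), with 56.1% and 39.7% of its UMIs in single members. *Tnfrsf9* (0.69, 0.44 to 0.95) and *Hopx* (0.52, 0.35 to 0.68) were higher in S-leaning dKO members, with intervals that spanned 0 in WT. *Klrg1* and *Nr4a1* had intervals that spanned 0 in both libraries.

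**Figure D4:**
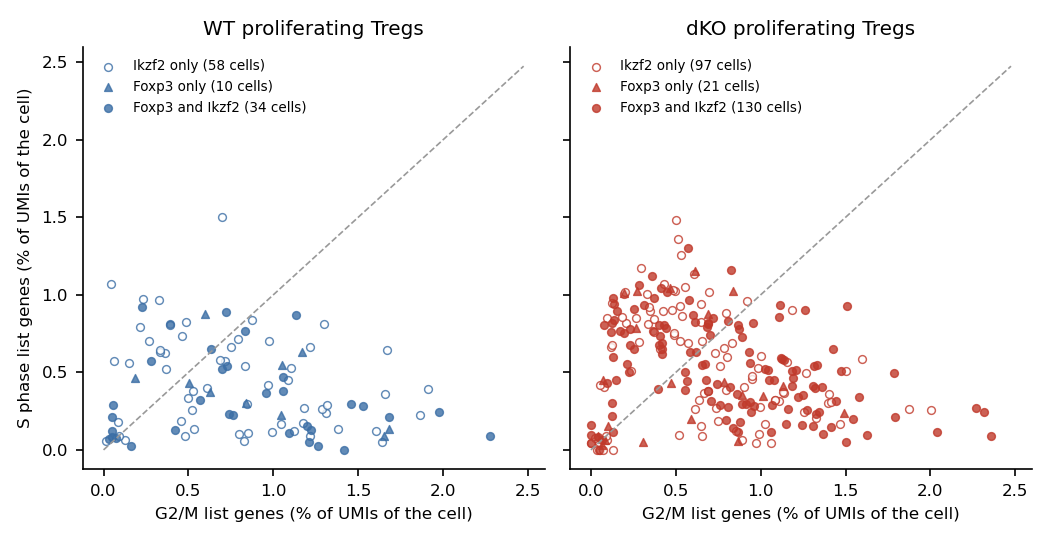
Share of each member's UMIs in the G2/M list (x axis, %) and in the S phase list (y axis, %), 1 point per cell, WT on the left and dKO on the right, with symbols for the *Foxp3* and *Ikzf2* transcripts held and a dashed line of equal shares. In WT 29 of 102 members lie above the line, and in dKO 107 of 248 do.

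Members that held *Foxp3* were compared with members that held *Ikzf2* alone, within each library. The former were 44 WT and 151 dKO cells with median depths of 6306.5 and 5731 UMIs, and the latter were 58 and 97 cells with 5606 and 4860 UMIs. *Klrg1* had the largest ratio in WT among the listed genes found in both subsets, at log2 4.15 (3.13 to 5.4) in WT and 1.12 (0.73 to 1.52) in dKO. *Il1rl1*, the IL-33 receptor of tissue Tregs, was higher by 4.07 (2.42 to 6.41) and 1.49 (0.64 to 2.43). *Il2ra* was higher by 2.66 (1.82 to 3.6) and 1.16 (0.62 to 1.74), *Areg* by 2.01 (1.42 to 2.64) and 0.80, and *Ctla4* by 1.39 (1.12 to 1.67) and 0.50 (0.37 to 0.63).

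Transcripts of helper T cells had the opposite order. *Ifng*, the Th1 cytokine, was lower in members with *Foxp3* (log2 -1.12, -1.74 to -0.54, in WT and -1.64, -2.44 to -0.86, in dKO). *Cd40lg*, the helper ligand, differed by -1.32 (-1.91 to -0.75) and -1.84 (-2.65 to -1.07), and *Tcf7*, a factor of naive and memory T cells, by -1.40 (-2.28 to -0.59) and -1.44 (-2.12 to -0.77). *Zbtb16*, the NKT factor among the marker genes, had 0 UMIs in members with *Foxp3* in both libraries. The mitotic gene *Birc5* had a WT interval that spanned 0 (-0.10, -0.45 to 0.24) and a dKO value of 0.26 (0.05 to 0.47). A dropout of *Foxp3* from a cell that expressed it and a cell without *Foxp3* cannot be told apart in these counts. In WT, *Foxp3* was held by 41.0% of members with a TRB contig and by 46.3% of those without one, and in dKO by 64.7% and 52.6%.

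**Figure D5:**
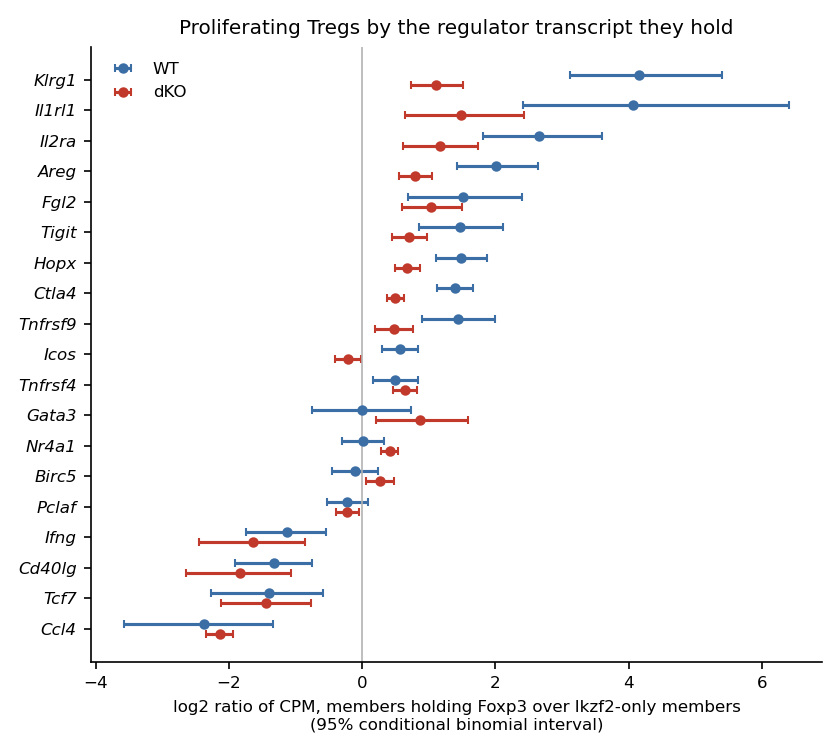
Log2 ratio of CPM in members holding *Foxp3* over members holding *Ikzf2* only (x axis) for 19 named genes (y axis), WT in blue and dKO in red, with 95% conditional binomial intervals. *Klrg1* (4.15 in WT and 1.12 in dKO), *Il1rl1*, *Il2ra*, *Areg* and *Ctla4* lie to the right of 0. *Icos* lies to the right in WT (0.57) and to the left in dKO (-0.22). *Birc5* is at -0.10 in WT and 0.26 in dKO, and *Pclaf* is at -0.22 in both. *Ifng*, *Cd40lg*, *Tcf7* and *Ccl4* lie to the left.

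Proliferating Tregs were next set beside proliferating conventional T cells. The rule required *Mki67* and *Top2a* in both groups and divided them by *Foxp3* and *Ikzf2*. High cycle levels in both groups and a difference in Treg genes therefore partly follow from the rule, and these values are descriptions. Summed G2/M levels were 8019 and 8067 CPM in WT (log2 -0.01, -0.06 to 0.04) and 7432 and 8662 CPM in dKO (-0.22, -0.27 to -0.17), and summed S phase levels differed by -0.32 (-0.39 to -0.26) and -0.20 (-0.26 to -0.14). Summed replication-dependent histone levels differed by -0.44 (-0.51 to -0.37) in WT and -0.27 (-0.35 to -0.20) in dKO. At least 2-fold higher in proliferating Tregs were 1.97% of genes in WT (77 of 3904) and 2.83% in dKO (103 of 3644), and at least 2-fold lower were 0.538% (21) and 1.40% (51). In WT, TMM scaling, which moves all ratios by 0.11, gave 60 higher and 28 lower. In both libraries, 26 of 3366 genes (0.772%) were higher and 1 (0.0297%) lower, the muscle-type actinin *Actn2*.

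Of the 18 Treg core genes, which include *Foxp3* and *Ikzf2*, 10 were compared in both libraries. At least 2-fold higher in each were 5 of the 10, beside 0.772% of all genes: *Il2ra*, *Ctla4*, *Tigit*, *Izumo1r* and *Cd83*. In each library 3 core genes, *Il2ra* among them, were compared only through the proliferating Tregs, so that they had to be higher there. Of the 35 effector and tissue Treg genes, 6 of 23 were at least 2-fold higher in each, beside 0.772% of all genes: *Klrg1*, *Areg*, *Il1rl1*, *Tnfrsf4*, *Tnfrsf9* and *Cd81*. Here 4 genes in WT and 5 in dKO, *Klrg1* and *Il1rl1* among them, were compared only through the proliferating Tregs. Summed over each whole list without the rule genes, the log2 ratios were 0.70 (0.62 to 0.78) in WT and 0.83 (0.75 to 0.91) in dKO for the core, and 0.24 (0.19 to 0.29) and 0.33 (0.28 to 0.38) for the effector list. *Klrg1* had 191 against 10.9 CPM in WT (log2 4.13, 3.30 to 5.08) and 226 against 20.6 in dKO (3.45, 2.56 to 4.53). *Tnfrsf9* had 213 against 28.6 and 347 against 68.1 CPM, and *Il2ra* had 133 against 34.5 and 118 against 20.6. *Itgav*, an integrin chain that activates TGF-β, had 234 against 90.0 and 324 against 64.0 CPM.

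IL-17 cytokine transcripts were higher in the conventional cells, most of all in dKO. There, *Il17a* had 148 CPM in proliferating Tregs and 924 in proliferating conventional T cells (log2 -2.64, -2.88 to -2.41), and *Il17f* had 21.5 and 179. In WT, *Il17a* had 126 and 213 CPM (-0.75, -1.13 to -0.39). With *Foxp3* required, the *Il17a* ratios were -1.37 in WT and -3.67 in dKO. In WT 39.0% of the *Il17a* UMIs of members came from 1 of 7 positive cells, and in dKO 50% of the *Il17f* UMIs from 1 of 8. *Ifng* had 193 and 193 CPM in WT and 42.4 and 88.7 in dKO, and with *Foxp3* required its ratio in WT was -0.72 (-1.29 to -0.20). The lymphotactin gene *Xcl1* was high in WT proliferating Tregs at 418 against 95.03 CPM, but 48.7% of its 271 UMIs came from 1 of 19 positive members, and with *Foxp3* required the ratio turned to -1.20. *H2-Aa* and *Cd74*, MHC class II genes of antigen-presenting cells, had 6.17 and 122 CPM in WT proliferating Tregs against 227 and 652 in the conventional cells. In dKO they had 47.1 and 448 CPM in proliferating Tregs against 90.8 and 217, so *Cd74* had the opposite order there. B cell and myeloid markers in the members are given above.

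Between genotypes, proliferating dKO Tregs had higher levels of *Tigit*, *Ctla4*, *Tnfrsf4* and *Tnfrsf18* and lower levels of *Cd40lg*, *Ifng* and *Cd226* than proliferating WT Tregs. Of the 22 conventional effector genes, 8 were above and 13 below their WT level and 1 was at 0 in both, with 3 of 11 compared at least 2-fold higher and 6 at least 2-fold lower in dKO and a summed log2 ratio of 0.56 (0.48 to 0.64). Of the 11, 6 reached 50 CPM only through WT and had to be lower, and 1 only through dKO, so nothing is read from these counts or from the median (-1.32, and -0.11 over all genes). The sum includes the abundant chemokines *Ccl5* and *Ccl4*, which were lower in dKO with 1 cell per clonotype. That setting also leaves out cells without both receptor chains. At least 2-fold higher in dKO were 1.89% of genes (74 of 3925) and at least 2-fold lower 7.03% (276), and TMM scaling, which raises all ratios by 0.18, gave 136 higher and 172 lower. Values below carry no scaling factor. RNA measures moved with this comparison: the median ribosomal share of members was 13.9% in WT and 18.6% in dKO, 8 and 3 members were under 5%, and median *Malat1* was 3820 and 2467 CPM. Their part was not tested, beyond the counts staying within 1.5 times without the cells under 5%. The genotype is confounded with the library, and members with *Foxp3* were fewer in WT, so ratios in members with *Foxp3* are given beside most values.

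*Tigit* had 160 CPM in WT and 429 in dKO members (log2 1.42, 1.12 to 1.73, and 1.01, 0.65 to 1.39, with *Foxp3* required). *Ctla4* differed by 1.08 (0.94 to 1.22, and 0.64 with *Foxp3* required), *Tnfrsf18* by 1.17 (0.91 to 1.43, and 0.98), *Tnfrsf4* by 0.93 (0.75 to 1.12, and 0.88) and *Areg* by 1.26 (0.99 to 1.54, and 0.73). *Il10* differed by 1.97 (1.17 to 2.89, and 0.95), on 14 WT UMIs. *Lag3*, an inhibitory receptor, had 4.63 CPM in WT, from 3 UMIs, and 50.5 in dKO (3.45, 1.84 to 5.76, and 3.04, 1.12 to 6.13, on 2 WT UMIs with *Foxp3* required). *Klrg1* (0.24, -0.06 to 0.55) and *Ccr8* (0.21, -0.15 to 0.59, and 0.24 with *Foxp3* required) had intervals that spanned 0, and *Klrg1* with *Foxp3* required was lower in dKO (-0.51, -0.83 to -0.18).

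Among genes that were lower in dKO, *Xcl1* had 418 and 20.9 CPM, with the single WT cell noted above, and with *Foxp3* required 12 WT and 0 dKO UMIs remained. *Cd40lg* had 219 and 44.4 CPM (log2 -2.30, -2.75 to -1.87, and -2.38 with *Foxp3* required), and *Ifng* had 193 and 42.4 CPM (-2.18, -2.65 to -1.74, and -2.27). *Bcl2*, which protects lymphocytes from cell death, had 131 and 26.3 CPM (-2.32, -2.91 to -1.76), but -0.81 with an interval that spanned 0 (-1.76 to 0.20) with *Foxp3* required. *Nr4a3* had 219 and 98.9 CPM (-1.15, -1.49 to -0.80, and -0.71). *Cd226*, the activating counterpart of TIGIT, had 225 and 39.7 CPM (-2.50, -2.97 to -2.06, and -2.03 with *Foxp3* required). The chemokine genes *Ccl3* and *Ccl4* were higher in dKO, by 2.97 and 2.72, yet 57.6% and 39.7% of their dKO UMIs lay in single members. Both turned to lower in dKO with 1 cell per clonotype (-2.39 and -1.71). That setting keeps 104 of 248 dKO members, since it also leaves out cells without both receptor chains. In dKO members with a TRB contig, *Ccl3* and *Ccl4* were lower than in those without (log2 -4.26 and -1.77). In WT *Ccl4* had the opposite order (2.13). Which part of the setting turned the ratios was not tested. *Jchain* was found in 1 WT and 2 dKO members, with 167 of the dKO UMIs in 1 cell.

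Several genes that differed between the genotypes in members also differed outside them. *Tigit* differed by 2.18 in non-proliferating Tregs and 1.51 in proliferating conventional T cells, *Ctla4* by 1.32 and 1.02, *Tnfrsf4* by 1.74 and 1.34, and *Tnfrsf18* by 1.49 and 0.59. *Cd40lg* differed by -2.84 and -1.56, *Ifng* by -2.13 and -1.12, and *Cd226* by -1.72 and -1.88. *Il10* (2.90 and 3.29), *Lag3* (2.84 and 5.10) and *Bcl2* (-1.53 and -1.31) also differed in both. *Areg* differed by 1.06 in non-proliferating Tregs only, with an interval that spanned 0 in proliferating conventional T cells (-0.16, -0.80 to 0.43). *Nr4a3* was the reverse, at -0.07 (-0.18 to 0.03) and -1.01 (-1.47 to -0.58). In non-proliferating Tregs, 3.62% of genes were at least 2-fold higher in dKO and 3.43% lower, and the effector and tissue Treg list summed to 14214 CPM in dKO and 8028 in WT (log2 0.82, 0.80 to 0.84), against 0.47 (0.43 to 0.52) in members. In proliferating conventional T cells, 1.94% of genes were higher and 5.12% lower, and that list differed by 0.38 (0.33 to 0.44). The quiescence list was lower in dKO members (-0.69, -0.80 to -0.59), with all 13 genes below WT. It was also lower in non-proliferating dKO Tregs (-0.94, -0.97 to -0.90), and in proliferating conventional T cells its interval spanned 0 (0.11, -0.01 to 0.22).

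T cell receptor sequences showed how the members were related. A clonotype was the nucleotide CDR3 of the TRA and of the TRB contig with most UMIs in a cell, and 55 WT and 131 dKO members had both chains. The WT members fell into 53 clonotypes and the dKO members into 104, and 0 clonotypes were found in both libraries. In WT 38.2% of these members (25.4 to 52.3, 21 of 55) belonged to clones of at least 2 cells of the library, and in dKO 48.1% (39.3 to 57.0, 63 of 131). Clones of at least 10 cells held 5.45% (3 of 55) and 22.1% (29 of 131). With clonotypes set by the TRB chain alone these shares were 13.1% (8 of 61) and 25.3% (43 of 170), and with *Foxp3* required they were 0 of 23, with an upper bound of 14.8%, and 20.9% (18 of 86). With *Foxp3* required, the shares in clones of at least 2 cells were 21.7% (7.46 to 43.7, 5 of 23) and 48.8% (37.9 to 59.9, 42 of 86). Non-proliferating Tregs gave 31.8% in WT and 55.7% in dKO, and proliferating conventional T cells gave 71.7% and 52.8%. The WT and dKO files differ in cells per library, and the part of this in the clone shares was not tested.

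Of the member clonotypes, 12 of 53 in WT and 27 of 104 in dKO were also found among non-proliferating Tregs, and 13 and 18 among gated conventional T cells. The CDR3 sequences of the clonotypes with most members are shown because they identify the lineages that hold the members. The first and last codons of each are in lower case and the stretch between them is in capitals.
dKO clonotype 1, TRA: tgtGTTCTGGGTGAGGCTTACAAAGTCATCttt
dKO clonotype 1, TRB: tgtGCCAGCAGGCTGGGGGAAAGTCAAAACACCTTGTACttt
dKO clonotype 2, TRA: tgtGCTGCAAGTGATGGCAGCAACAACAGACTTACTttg
dKO clonotype 2, TRB: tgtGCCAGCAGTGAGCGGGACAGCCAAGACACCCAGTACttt
WT clonotype 1, TRA: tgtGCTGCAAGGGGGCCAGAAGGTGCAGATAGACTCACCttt
WT clonotype 1, TRB: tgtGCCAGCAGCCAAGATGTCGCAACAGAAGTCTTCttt

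dKO clonotype 1 (TRAV6-1, TRAJ30, TRBV13-1, TRBJ2-4) held 11 members of 281 cells, of which 177 were gated Tregs, 151 of these non-proliferating and 57 further cells conventional. Its proliferating share was 6.21% (3.14 to 10.8), against 8.26% (7.11 to 9.53, 170 of 2058) over dKO gated Tregs with a TRB contig. Every cell of a clonotype has both chains, so the 3.65% over all dKO gated Tregs is not its counterpart. Of the clonotype's 11 members, 6 held *Foxp3* and all 11 held *Ikzf2*. Summed over those 11 cells, *Hopx* had 2890 CPM, *Tnfrsf4* 1786, *Klrg1* 1104 and *Gata3* 179, against 868, 882, 226 and 72.0 CPM over all dKO members. dKO clonotype 2 (TRAV5D-4, TRAJ7, TRBV13-1, TRBJ2-5) held 5 members among 15 gated Tregs (33.3%, 11.8 to 61.6) and 20 cells in all. WT clonotype 1 (TRAV5D-4, TRAJ45, TRBV5, TRBJ1-1) held 2 members of 18 cells, of which 12 were conventional, and *Foxp3* was held by 0 of the 2 members and 1 of the 18 cells. Of the other WT clonotypes 1 more held 2 members and the rest held 1 each, and no WT clonotype held more than 2 members, while 1 WT clonotype held 22 proliferating conventional T cells. Without dKO clonotype 1, the dKO counts of genes past 2-fold stayed within 1.5 times of those above.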

How the data were processed

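The authors sorted hepatic CD4+ T cells, made 5′ libraries and counted UMIs with Cell Ranger 7.0.1, named in the matrix header, on mm10. The deposited tables hold raw counts of UMIs for 32285 genes, and the deposited contig tables gave the receptor chains. Groups came from the sample labels, with 1 library per genotype, so no test, SE or p-value was computed.

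The UMIs of all cells in a group were added and scaled to the group's total, as CPM. A ratio compares genes with at least 50 CPM in either group, and a 2-fold difference was counted. Ratio intervals were exact conditional binomial, level intervals exact Poisson and share intervals Clopper-Pearson, all at 95%. A count of 0 was set at 3 UMIs for bounds. TMM factors (edgeR 4.0.16 in R 4.3.3) served as a scaling alternative only, with no model fitted. Thinning used seed 1. No doublet caller was run, and cells with 2 TRB contigs were left out as an alternative. The setting of 1 cell per clonotype kept the first cell of each clonotype in a group and left out cells without both chains. The ratios and their intervals were tested on simulated Poisson counts of summed groups, without spread between cells. The gates, thinning, clonotypes and list shares were not tested in this way. Python 3.11.15, numpy 2.4.6, scipy 1.17.1, pandas 2.3.3 and matplotlib 3.10.9 were used.

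The members and lists were chosen with earlier results of these data known. Named genes were the rule genes, a fixed set of Treg and cell cycle genes, up to 4 leading and 2 extreme genes of each list, and the 10 genes at each end of a comparison, ranked by the smaller library ratio where both libraries enter, without receptor, immunoglobulin, mitochondrial and ribosomal genes. *Cd81* and *Zbtb16*, and the genes drawn in figures among the named ones, were chosen after their values were seen.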

Additional observations from a re-analysis of the deposited data

Results flagged for a closer look

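Of 261 named genes compared, 7 had log2 ratios of proliferating over non-proliferating Tregs with opposite signs in WT and dKO and intervals that excluded 0 in both. Each genotype is 1 library, and the difference between the libraries was not tested for any of them. *Klrg1* had 0.53 (0.23 to 0.83) in WT and -1.02 (-1.19 to -0.86) in dKO, and 0.38 and -0.89 with *Foxp3* required. *Il1r2*, a decoy receptor for IL-1, had 0.68 and -0.72, and 1.12 and -0.85 with *Foxp3* required. *Tmem163* had 0.74 and -1.23, and 1.30 and -1.45 with *Foxp3* required. *Elp5* had -1.03 and 0.50, and -1.06 and 0.69 with *Foxp3* required.

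The other 3 had larger shares of their UMIs in single cells. Few cells also held some of the genes above: *Elp5* was found in 11 WT members and *Tmem163* in 19 WT and 12 dKO members. *Il1r2* was found in 14 WT members, with 23.3% of its UMIs in a single cell. *Xcl1* had 0.92 and -1.30, with 48.7% of its WT and 41.9% of its dKO member UMIs in single cells, and -0.97 in WT with *Foxp3* required. *Ccl3* had -1.27 and 1.04, with 90.9% and 57.6% in single cells, and *Ccl4* had -0.40 and 0.31, with 56.1% and 39.7%. With *Foxp3* required, *Ccl4* was at -0.81 and -0.22 and *Ccl3* in dKO at -0.30.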

How the results depend on the processing

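No paired analysis was possible because each genotype has 1 library. With 1 pooled library per genotype, the spread between mice is unknown, and a median of 1679 and 1685 UMIs per cell limits detection of low transcripts. Of 10257 alternative values for 1290 named ratios, 9229 stayed within the spread of the main value, 1012 moved and 16 turned sign. Of 152 for shares and counts, 75 stayed, 75 moved and 2 turned. Causes were not tested beyond each alternative's own construction.

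The proliferating share was 9.21% in WT and 4.74% in dKO with *Foxp3* required, 11.7% and 5.44% with both *Foxp3* and *Ikzf2* (difference 6.28 points), 20.5% and 11.4% with *Mki67* or *Top2a* (9.12), and 5.53% and 2.65% with 2 UMIs of each. It was 2.17% and 0.938% at 1000 UMIs (1.23), 9.44% and 8.26% with a TRB contig (1.18), and 12.1% and 11.5% in cells of at least 2000 UMIs (0.624, chosen after seeing the data). In WT it was 12.1% with *Cd4* required and CD8 at 0 (difference 7.99). The difference turned at 2000 UMIs (6.97% in dKO, -0.945) and with 1 cell per clonotype (12.5% and 12.7%, -0.181). The setting of 1 cell per clonotype also leaves out cells without both receptor chains, here and below. The WT share in clones was 21.7% with *Foxp3* required. Leaving out cells with under 5% ribosomal UMIs or the largest dKO member clonotype, both chosen after seeing the data, kept every count within 1.5 times.

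Counts past 2-fold moved as follows, given as higher then lower. Proliferating over non-proliferating Tregs gave 577 and 236 (WT) and 565 and 496 (dKO) at 20 CPM, 163 and 27, and 200 and 152, at 100 CPM, and 668 and 332, and 674 and 741, at 1.5-fold. WT lower was 165 after thinning, 171 with *Foxp3* and 151 with 1 cell per clonotype. dKO over WT gave 136 and 172 with TMM, 213 and 464 after thinning, 194 and 560 at 20 CPM, 35 and 127 at 100 CPM, and 332 and 759 at 1.5-fold. Proliferating Tregs over conventional gave, in WT, 148 and 42 by mean cell CPM, 230 and 123 after thinning, 178 and 101 with *Foxp3*, 125 and 78 with 1 cell per clonotype, 262 and 103 at 20 CPM, 25 and 10 at 100 CPM, and 292 and 130 at 1.5-fold. In dKO it gave 212 and 161 after thinning, 177 and 84 with 1 cell per clonotype, 305 and 191 at 20 CPM, 45 and 24 at 100 CPM, and 285 and 223 at 1.5-fold, and lower was 80 with *Foxp3*.

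Log2 ratios that turned with 1 cell per clonotype were *Ccl3* over non-proliferating Tregs (0.10 in WT, -2.04 in dKO) and dKO over WT (-2.39), *Ccl4* (-1.71), *Ccl5* (-0.27) and *Eomes* (-0.51) dKO over WT, *Gzma* over non-proliferating dKO Tregs (-1.18), and *Ccr7* (0.90) and *Jchain* (-0.43) over conventional cells in dKO. With *Foxp3* required, *Ccl3* over non-proliferating dKO Tregs turned (-0.30), as did *Ccl4* (-0.41), *Cd7* (-1.16), *Klrd1* (-0.69) and *Xcl1* (-1.20) over conventional cells in WT. *Jchain* there turned by mean cell CPM (1.06) and after thinning (0.58).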
